A study of Mus musculus with 37 samples.

Results

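Glycolysis and glycogen metabolism were followed in mouse left ventricle through 34 gene symbols, chosen by name for their place in these pathways. They matched 35 of the 56748 gene entries of the deposited table, because Aldoa is listed under 2 gene IDs. Of these entries, 34 passed the filter for low values (at least 0.5 FPKM in at least 4 libraries) and were tested. Aldoc, a brain-type aldolase, did not pass, with at most 0.43 FPKM in any library, and the second Aldoa entry (ENSMUSG00000114515) lay between 0 and 1.11 FPKM. FPKM divides the fragments of a gene by its length and by the depth of the library, which allows levels to be compared between genes of unequal length.

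RNA came from hearts of young adult male and female C57BL/6J mice. Naïve mice (n = 5) had isoflurane anesthesia only, with no intubation and no injection. Adr mice, named sham in the sample labels, were intubated, received saline into the left ventricle and then adrenaline. Arrest mice were intubated, received potassium chloride into the left ventricle to stop the heart, and were resuscitated with adrenaline and chest compressions after a period of asystole. Adr and Arrest hearts were collected after 0.5, 1, 3 or 7 days (n = 4 per group). Injection, ventilation and adrenaline were shared by Adr and Arrest and absent from Naïve, so a difference from Naïve cannot be assigned to any of them.

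Glycolysis begins when glucose enters the cell through GLUT transporters and hexokinase traps it as glucose 6-phosphate. Phosphofructokinase commits the sugar to breakdown, the lower enzymes yield ATP and pyruvate, and lactate dehydrogenase with the monocarboxylate transporters links pyruvate to lactate inside and outside the cell. Glucose 6-phosphate can instead be stored as glycogen, which phosphorylase releases again when phosphorylase kinase activates it. The adult heart burns mainly fatty acids, and turns more to glucose and glycogen when oxygen or ATP is short. Many steps have a muscle isoenzyme and a second form that is typical of other cells, such as Pgam2 and Pgam1 or Eno3 and Eno1.

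Each library held 13.2 M to 30.2 M fragments counted on genes (median 14.9 M), where M stands for mega. Replicate 3 of Adr 3 d stood apart. Genes of the mitochondrial genome took 9.36% of its fragments, against 20.8 to 30.9% in the other libraries. The summed FPKM of 8 ventricular cardiomyocyte markers was 3657 there and 8092 to 18017 elsewhere. The sum of 6 monocyte and macrophage markers was 2262 there and 268 to 1037 elsewhere, and that of 5 fibroblast markers was 811 against 207 to 475. Results are therefore given with and without this library. All 8 ventricular markers were above 0 in every group, and 9 fast skeletal muscle markers summed to no more than 9.9 FPKM in any library. In bulk tissue, fewer cells of a type and less RNA per cell cannot be told apart.

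In the Naïve ventricle, 11 of the 34 tested entries had a mean over 100 FPKM, 12 were between 10 and 100, and 11 were under 10. The highest levels were those of Ldhb, the heart-type subunit of lactate dehydrogenase (695 FPKM), the aldolase Aldoa (628 FPKM), the muscle enolase Eno3 (540 FPKM) and the muscle phosphoglycerate mutase Pgam2 (361 FPKM). The form typical of muscle or heart exceeded its partner at the enolase, mutase and lactate dehydrogenase steps. Eno1 stood at 25.1 FPKM beside Eno3, Pgam1 at 19.8 FPKM beside Pgam2, and Ldha, the subunit typical of skeletal muscle, at 174 FPKM beside Ldhb. The muscle phosphofructokinase Pfkm stood at 176 FPKM, above the liver form Pfkl at 12.3 FPKM and the platelet form Pfkp at 3.39 FPKM.

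Among transporters, the insulin-responsive Slc2a4 (GLUT4) stood at 78 FPKM and the widely expressed Slc2a1 (GLUT1) at 3.55 FPKM. Slc16a1 (MCT1), which carries lactate in both directions, stood at 51.4 FPKM, whereas Slc16a3 (MCT4), a lactate exporter of glycolytic cells, stood at 0.32 FPKM. Muscle glycogen phosphorylase Pygm (227 FPKM) exceeded the brain form Pygb (125 FPKM), and both exceeded glycogen synthase Gys1 (17.7 FPKM). The PFKFB enzymes, which set the level of the phosphofructokinase activator fructose 2,6-bisphosphate, lay between 1.11 FPKM for Pfkfb4 and 4.95 FPKM for Pfkfb2.

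**Figure D1:**
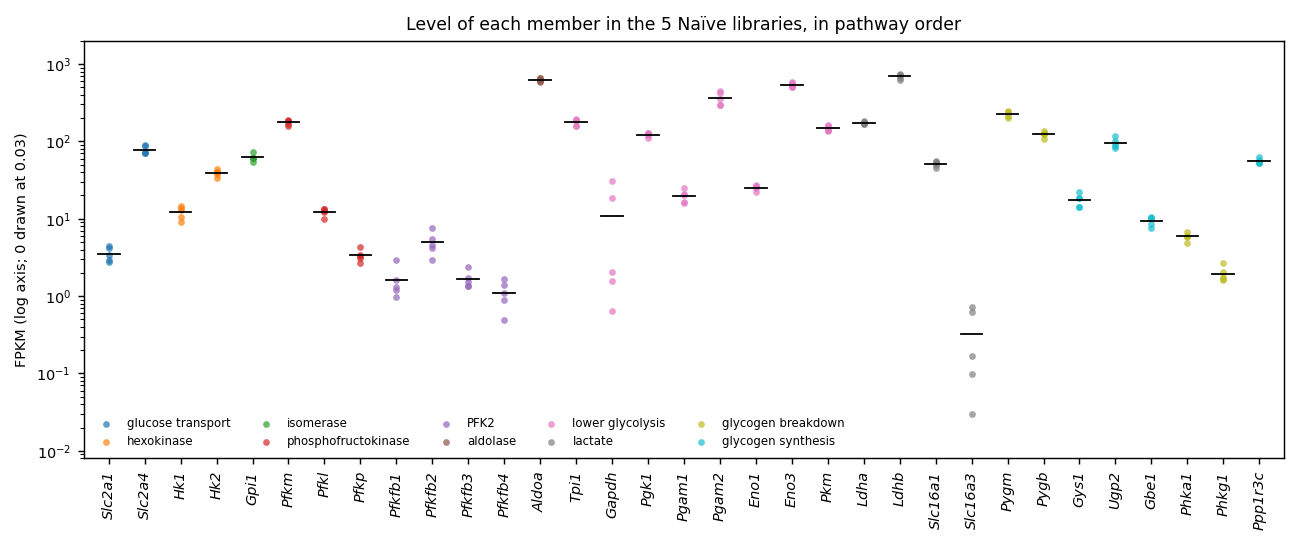
Levels of 33 members in the 5 Naïve libraries, in pathway order and coloured by role. Each point is a library, each line a mean, and the FPKM axis is logarithmic. Ldhb, Aldoa, Eno3 and Pgam2 lie highest, Slc16a3 lies lowest, and the Gapdh points are spread over more than a decade.

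Gapdh, the glyceraldehyde 3-phosphate dehydrogenase often used as a reference gene, did not follow the enzymes on either side of it. It lay between 0.388 and 4.09 FPKM in 30 libraries and between 18.5 and 65.4 FPKM in 7. By contrast, Tpi1 just before it in the pathway never fell under 99.1 FPKM and Pgk1 just after it never under 99 FPKM. The 7 high libraries belonged to 6 groups and included Naïve replicates 4 and 5. The mouse genome holds many near-identical copies of Gapdh, and how shared reads were assigned is not given in the sources used here, so its values are uncertain and no difference in Gapdh is described.

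The promoters of the members were read from RefSeq (GRCm38.p6) as the 250 bases before each annotated start. Windows were found for 33 of the 34 symbols, 51 windows in all, and none for Slc2a4. The motif ACGTG, the core bound by hypoxia-inducible factors, occurred on either strand in 20 of the 51 windows (39.2%), against 16.6% of 32851 windows of the same length in the whole table. Counted by gene, 16 of 33 members held it in at least 1 window (48.5%), against 18.5% of all symbols. The longer CACGTG, an E-box that contains ACGTG, occurred in 6 member windows (11.8%) and in 6.02% of all windows. Ldha had the most ACGTG matches in a single window, 5 over both strands, where each of its 2 CACGTG counts on either strand. The windows of the members called with all libraries against Naïve, Hk2 and Pgam1, are shown. That of Slc16a3 is added as 1 example of the members that the fit described below called only without replicate 3 of Adr 3 d. Capitals mark ACGTG or its reverse complement.
Hk2, chr6:82774455-82774704, minus strand: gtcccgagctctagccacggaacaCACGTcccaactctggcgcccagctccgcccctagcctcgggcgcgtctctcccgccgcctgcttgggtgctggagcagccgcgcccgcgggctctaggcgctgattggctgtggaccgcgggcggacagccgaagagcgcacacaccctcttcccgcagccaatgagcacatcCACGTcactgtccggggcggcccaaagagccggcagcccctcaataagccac
Pgam1, chr19:41911621-41911870, plus strand: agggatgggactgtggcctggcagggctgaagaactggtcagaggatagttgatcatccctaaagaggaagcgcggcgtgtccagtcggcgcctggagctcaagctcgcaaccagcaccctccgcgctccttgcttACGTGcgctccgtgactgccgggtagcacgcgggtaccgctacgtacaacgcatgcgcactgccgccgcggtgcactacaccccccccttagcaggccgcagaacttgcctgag
Slc16a3, chr11:120948817-120949066, plus strand: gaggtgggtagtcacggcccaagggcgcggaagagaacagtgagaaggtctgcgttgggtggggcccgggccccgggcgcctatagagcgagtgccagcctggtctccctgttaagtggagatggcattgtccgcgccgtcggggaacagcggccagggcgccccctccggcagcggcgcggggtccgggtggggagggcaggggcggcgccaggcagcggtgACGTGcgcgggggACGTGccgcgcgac
Hk2 and Slc16a3 each held 2 matches and Pgam1 held 1. Of the other called members with a window, Pygb held 1, Slc16a1 held 2 from 1 CACGTG read on both strands, and Phka1 held none. A match is a run of letters and was not tested as a binding site.

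Every group after intubation was set against Naïve with limma on log2(FPKM + 1), fitted to all tested genes, with Benjamini-Hochberg adjusted p at most 0.05 as the threshold. Fold changes on this scale understate changes of low genes. In Arrest at 1 d, 2 of 34 entries passed, Hk2 and Pgam1, where 7.11% of all genes did. In Arrest at 0.5 d the same symbols passed, against 3.2% of all genes. No member passed in any Adr group, where 0.187, 0.627, 0 and 0% of all genes did in the order of the times, nor in Arrest at 3 or 7 d, with 0.139 and 0%. The members called therefore made up a share near that of all genes, or under it in Arrest at 1 d.

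Without replicate 3 of Adr 3 d, the same fit called 6 members in Arrest at 0.5 d (5.5% of all genes), 5 in Arrest at 1 d (10.4%) and 1 in Arrest at 3 d (1.14%). It called 3 in Adr at 1 d (2.53%). No member passed in Adr at 0.5, 3 or 7 d, where 1.43, 0 and 0% of all genes did, or in Arrest at 7 d (0%). Over both fits 7 members were called in some comparison with Naïve: Hk2, Pgam1, Slc2a4, Slc16a1, Slc16a3, Pygb and Phka1. At an unadjusted p of 0.05, the fit of all libraries counted 9 of 34 in Arrest at 0.5 d, beside 18.1% of all genes, and 10 in Arrest at 1 d, beside 21.7%. In Adr it counted 3, 4, 10 and 1, in the order of the times, beside 14, 14.7, 13.9 and 6.17% of all genes. In Arrest at 3 and 7 d it counted 4 and 0, beside 13.7 and 5.14%.

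The median log2 difference of the members from Naïve was -0.02 in Arrest at 0.5 d and 0.07 at 1 d, beside 0.03 and 0.03 over all tested genes. In Adr it was 0.05, -0.06 and -0.05 at 0.5, 1 and 7 d, beside 0.04, 0.04 and 0.01 over all genes. In Adr at 3 d the median of -0.24, with 27 of 34 members lower, became -0.06 without replicate 3. Under quantile normalization the member medians were -0.18 in Arrest at 0.5 d, -0.19 in Arrest at 1 d and -0.15 in Adr at 1 d, beside -0.02, -0.02 and -0.01 over all genes, so the sign in Arrest at 1 d depended on the scaling.

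**Figure D2:**
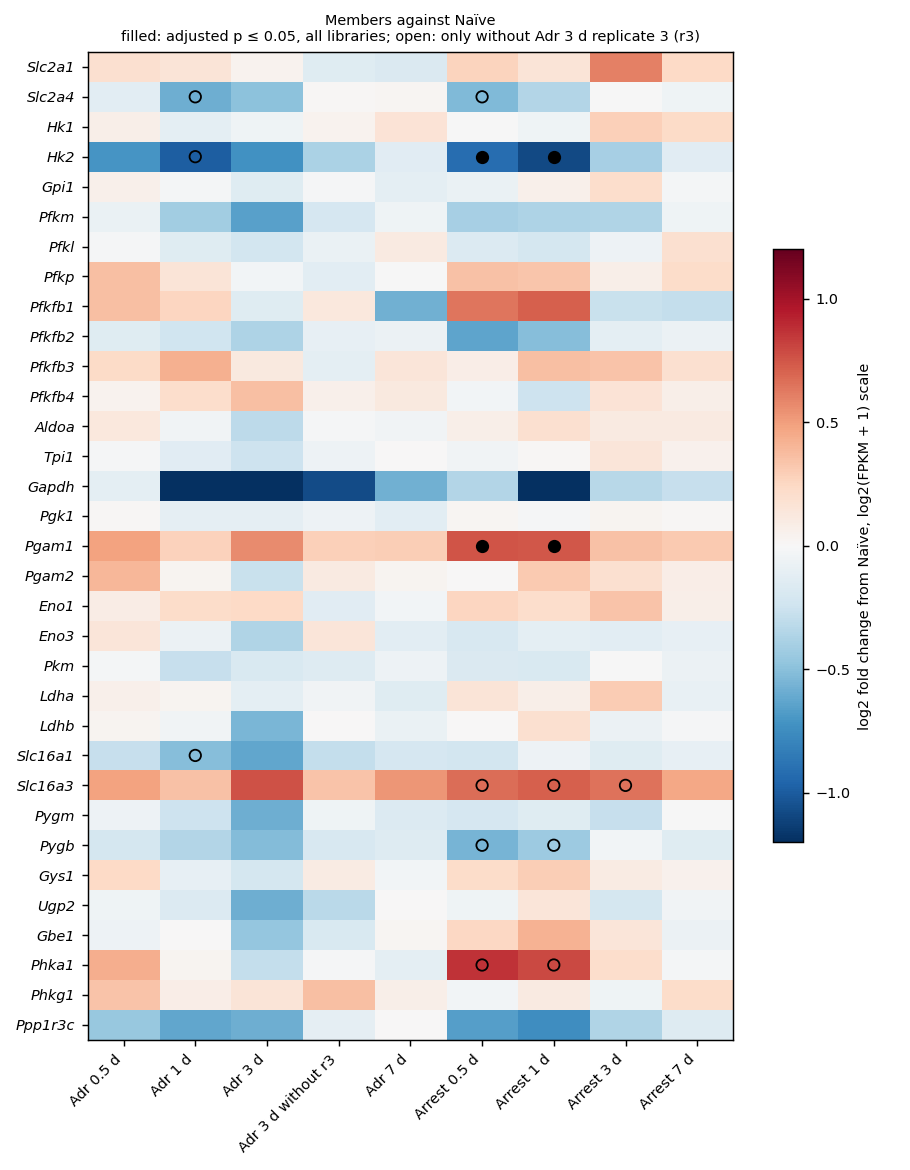
Log2 fold change of 33 members from Naïve on the log2(FPKM + 1) scale, with Adr 3 d drawn with and without replicate 3. Filled circles mark adjusted p of at most 0.05 with all libraries (Hk2 and Pgam1 in Arrest at 0.5 and 1 d), and open circles those reached only without that replicate. Colours saturate at 1.2, which only Gapdh exceeds.

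Among the genes of glucose entry and trapping, only the Hk2 transcript was called with all libraries. Hk2 is the insulin- and hypoxia-regulated hexokinase of muscle that binds to mitochondria. Hk2 measured 40.5, 37.3, 40.7, 43.8 and 33.9 FPKM in the Naïve libraries. It measured 20.1, 22.3, 20.9 and 17.9 FPKM in Arrest at 0.5 d, and 14.6, 17.6, 16.8 and 24 FPKM in Arrest at 1 d. Every Arrest library at these times lay below every Naïve library. Hk2 fell by 0.92 on the log2 scale at 0.5 d (SE 0.25, limma adjusted p = 0.037) and by 1.08 at 1 d (SE 0.25, adjusted p = 0.0073). At 1 d the call held in each of 37 fits that left out a library. At 0.5 d it was lost in 8 of them, those without Naïve replicate 1, 2, 3 or 4 or without any of the 4 Arrest 0.5 d libraries, and also without a filter, with the length trend removed and with the description number described below as a covariate.

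In Adr, Hk2 measured 27.5, 30.5, 13 and 27.8 FPKM at 0.5 d and 22.8, 23.9, 17.9 and 13.8 FPKM at 1 d, again without overlap with Naïve. The log2 difference at 1 d was -0.99 (SE 0.25, limma adjusted p = 0.051), and without replicate 3 of Adr 3 d it passed (adjusted p = 0.0094). At 0.5 d it was -0.71 (adjusted p = 0.19, and 0.074 without that replicate). Arrest and Adr were close to each other in Hk2, with log2 differences of -0.21 (SE 0.26) at 0.5 d and -0.09 (SE 0.26) at 1 d, neither of them called.

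Hk2 at 3 d was spread in both arms. Arrest libraries read 18.2, 40.1, 38.3 and 26.4 FPKM, and Adr libraries 34.5, 32.9, 10.7 and 23.4 FPKM. At 7 d the values were 31 to 40 FPKM in Adr and 32.6 to 40.4 FPKM in Arrest, overlapping the Naïve range. Within Arrest, 1 d lay below 7 d by 0.94 on the log2 scale without any Naïve library in the comparison (limma adjusted p = 0.053, and 0.01 without replicate 3 of Adr 3 d). The background of that comparison was 1.88% of genes with all libraries and 3.97% without the replicate. For Adr at 1 d against 7 d the log2 difference was -0.85 (limma adjusted p = 0.23, and 0.066 without the replicate), with backgrounds of 0.0422 and 0.383%.

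Hk1, the constitutive hexokinase, averaged 12.2 FPKM in Naïve and 11 to 14.9 FPKM in the other groups. The log2 ratio of Hk2 to Hk1 within a library was 1.70 ± 0.26 (SD, n = 5) in Naïve, 0.76 ± 0.1 (n = 4) in Arrest at 0.5 d and 0.64 ± 0.21 (n = 4) in Arrest at 1 d. Every library of 7 of the 8 Adr and Arrest groups lay below every Naïve library in this ratio. Each of these 7 reached the smallest p of the exact two-sided permutation test (0.016), which became 0.093 after adjustment over 88 tests. Without its replicate 3, Adr at 3 d stayed below Naïve in all 3 libraries (exact permutation p = 0.036, the smallest possible). None of the 88 tests, on 11 isoenzyme pairs in 8 groups, passed after adjustment, and 26 had an unadjusted p of at most 0.05. With 0.016 as the smallest p, many tests had to reach it together for any to pass.

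Both results in Arrest had a limit in the sample numbering, Hk2 as well as Pgam1 described below. Each library carries a number in its sample description whose meaning the labels do not give, and it runs from 116 to 127 in Naïve and from 70 to 95 in Arrest at 1 d. With that number as a covariate the log2 difference of Hk2 in Arrest at 1 d was -0.72 (limma adjusted p = 0.40), and the fit called 34 genes in all in that comparison in place of 1179. Whether the number is a batch was not tested. The rank correlation of gene length with each gene's deviation from its mean over libraries also differed between groups. It was 0.082 to 0.26 in Naïve, -0.32 to 0.17 in Arrest at 0.5 d and -0.26 to -0.11 at 1 d. Hk2 is listed with 5969 bases and Pgam1 with 1982. With this trend removed, their log2 differences at 0.5 d were -0.85 and 0.70, neither called, whereas both stayed called at 1 d. Its part in the results was not tested.

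Slc2a4 passed in the fit without replicate 3 of Adr 3 d and not in that with all libraries. Its Naïve values were 70.1, 86, 90.7, 72.1 and 71.3 FPKM. In Adr at 1 d they were 51.4, 55.2, 48.2 and 50.8 FPKM, and in Arrest at 0.5 d 66.5, 48.7, 49.6 and 50.3 FPKM, all below the lowest Naïve library. The log2 difference was -0.59 in Adr at 1 d (limma adjusted p = 0.27 with all libraries and 0.035 without the replicate) and -0.53 in Arrest at 0.5 d (adjusted p = 0.27 and 0.034). Fitted with only the compared groups, Arrest at 0.5 d also passed (limma adjusted p = 0.047). Arrest at 1 d lay between these and Naïve, at 49.8, 63.3, 64.6 and 65.6 FPKM (log2 difference -0.35, adjusted p = 0.45 and 0.14). At 3 d without the replicate, and at 7 d, Slc2a4 means were 75.6 to 79.8 FPKM, beside 78 FPKM in Naïve.

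Slc2a1 showed no called difference. Its mean was highest in Arrest at 3 d, at 6.13 FPKM, where replicate 1 alone read 9.66 FPKM (log2 difference 0.61, limma adjusted p = 0.21).

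**Figure D3:**
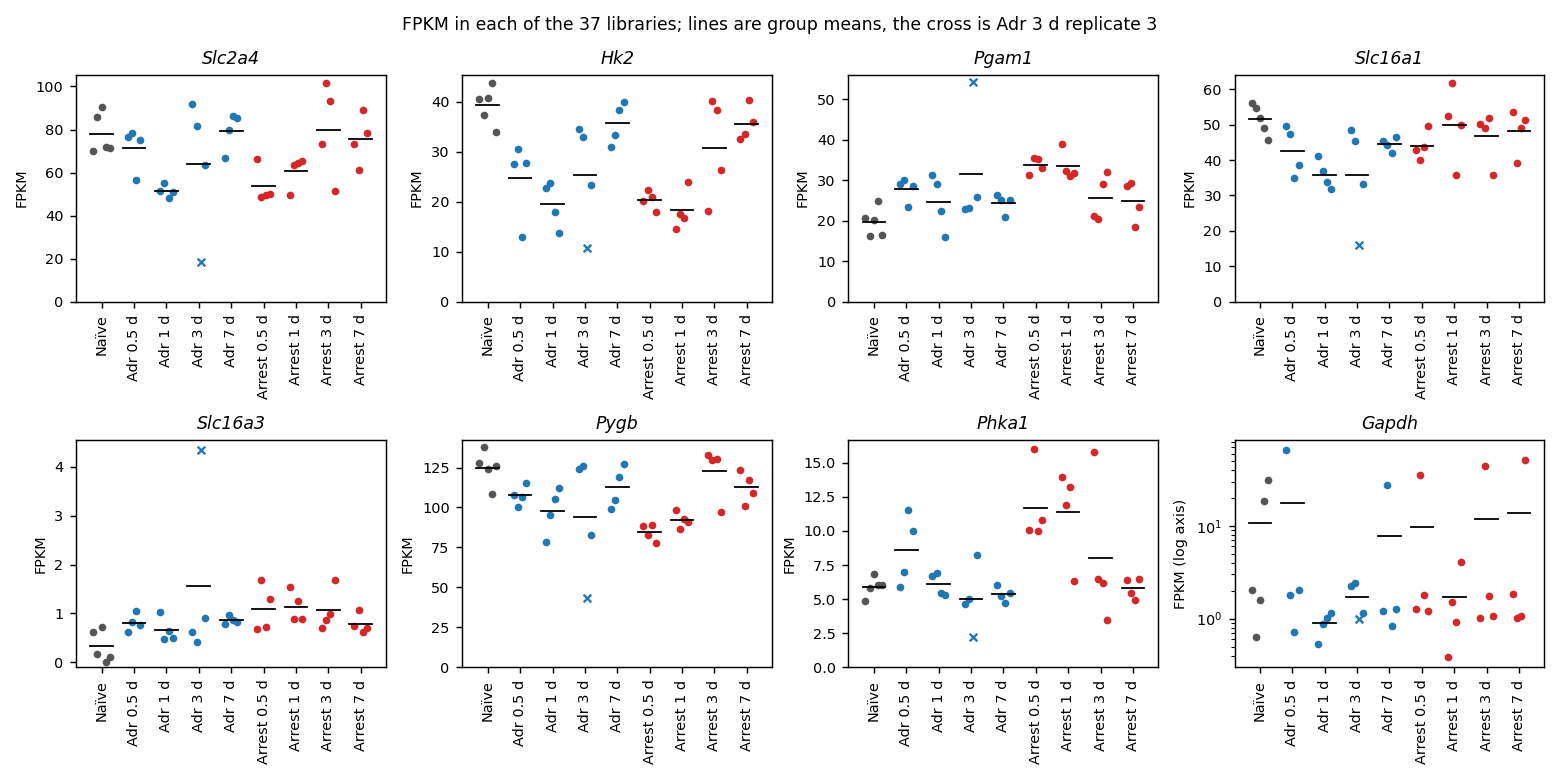
FPKM of 7 called members and of Gapdh in all 37 libraries, with group means as lines and replicate 3 of Adr 3 d as a cross. Hk2 lies below all Naïve libraries at 0.5 and 1 d in both arms, Pgam1 and Phka1 lie high in Arrest at the same times, and Gapdh (logarithmic axis) has 7 libraries far above the rest.

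At the phosphofructokinase step no member passed in either fit. Pfkm averaged 176 FPKM in Naïve, 132 FPKM in Adr at 1 d, and 134 and 136 FPKM in Arrest at 0.5 and 1 d. Pfkp, the form typical of non-muscle cells, measured 3.32, 3.41, 3.15, 4.35 and 2.71 FPKM in Naïve and 4.53, 4.92, 4.08 and 4.49 FPKM in Arrest at 1 d. Its log2 difference of 0.34 missed the threshold (limma adjusted p = 0.11). In Adr at 0.5 d it measured 4.57, 4.29, 5.42 and 4.21 FPKM, with a log2 difference of 0.36 (adjusted p = 0.20). It passed with each library's trend with gene length removed, in Arrest at 0.5 and 1 d, and also in Adr at 0.5 d when replicate 3 of Adr 3 d was left out as well. Quality weights called Pfkp in Arrest at 1 d too. Pfkfb2, the heart form activated by insulin and adrenaline signalling, averaged 4.95 FPKM in Naïve and 2.79 FPKM in Arrest at 0.5 d (log2 difference -0.63, adjusted p = 0.14). Pfkfb1 averaged 1.60 FPKM in Naïve and 3.17 FPKM in Arrest at 1 d (log2 difference 0.71, adjusted p = 0.20).

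Among the genes of lower glycolysis, the transcript called was that of Pgam1, the non-muscle phosphoglycerate mutase. Pgam1 measured 20.8, 16.2, 20.3, 25 and 16.6 FPKM in Naïve. It measured 31.3, 35.5, 35.2 and 33 FPKM in Arrest at 0.5 d and 38.9, 32.4, 31.2 and 31.7 FPKM at 1 d. Every Arrest library at these times lay above every Naïve library. Pgam1 rose by 0.76 on the log2 scale at 0.5 d (SE 0.2, limma adjusted p = 0.030) and by 0.75 at 1 d (SE 0.2, adjusted p = 0.019).

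Adr libraries at 0.5 d overlapped the Naïve range for Pgam1, at 29.2, 30, 23.5 and 28.7 FPKM (log2 difference 0.49, limma adjusted p = 0.25). Those at 1 d were 31.2, 29.2, 22.4 and 15.9 FPKM (log2 difference 0.28, adjusted p = 0.53). The difference of Arrest from Adr was 0.27 (SE 0.21) at 0.5 d and 0.47 (SE 0.21) at 1 d, with adjusted p = 1 and 0.72. The call at 0.5 d was lost in 6 of 37 fits that left out a library, among them those without Naïve replicate 2 or 5 and those without any of the Arrest 0.5 d libraries. The adjusted p over these fits ran from 0.0052 to 0.096. It was also lost under quantile normalization (adjusted p = 0.069), per fragments counted (0.083), without a filter (0.054), with the length trend removed (0.055), and with the description number as a covariate (0.0999). At 1 d the call was lost without Arrest 1 d replicate 1 (adjusted p = 0.074), under quantile normalization (0.079), per fragments counted (0.081) and with the description number (log2 difference 0.34, adjusted p = 0.66).

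Pgam1 is also among the members that were highest in the library rich in macrophage and fibroblast markers, where it read 54.2 FPKM. In Arrest at 0.5 and 1 d the 6 monocyte and macrophage markers summed to 352 to 451 and 270 to 410 FPKM, within or under the 273 to 492 FPKM of Naïve. The 5 fibroblast markers summed to 234 to 293 and 277 to 362 FPKM, beside 223 to 297 FPKM in Naïve. The 7 neutrophil markers summed to 3.6 to 32.2 FPKM and 5.81 to 19.5 FPKM, beside 0 to 9.74 FPKM in Naïve, with Ly6g at 0 in every library of these 3 groups. The 5 endothelial markers summed to 145 to 203 and 118 to 182 FPKM, beside 157 to 169 FPKM in Naïve. Among them, Kdr was lower by 0.95 and 0.92 in log2 units at these times and Cdh5 by 0.42 at 1 d. The other endothelial markers are not given singly. The median sum was 162 FPKM in Naïve, 157 FPKM in Arrest at 0.5 d and 174 FPKM at 1 d, so Kdr and Cdh5 do not stand for the whole list. The part of other cell types in the Pgam1 result was not tested.

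The muscle partner Pgam2 showed no called difference, with means of 361 FPKM in Naïve, 373 FPKM in Arrest at 0.5 d and 448 FPKM at 1 d. Aldoa, Tpi1, Pgk1, Eno1, Eno3 and Pkm likewise passed in no comparison of either fit. Their group means without replicate 3 of Adr 3 d ran from 610 to 719 FPKM for Aldoa, 159 to 198 FPKM for Tpi1, 112 to 125 FPKM for Pgk1 and 122 to 148 FPKM for Pkm.

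At the lactate step, Ldha and Ldhb showed no called difference. Ldhb means without replicate 3 of Adr 3 d ran from 659 FPKM in Adr at 7 d to 795 FPKM in Arrest at 1 d, and Ldha means from 158 to 216 FPKM. The exporter Slc16a3 was low throughout. It measured 0.62, 0.17, 0.73, 0 and 0.10 FPKM in Naïve, from 52, 14, 51, 0 and 7 fragments. The 0 fragments of replicate 4 allow up to 0.041 FPKM (3 fragments, counting error only).

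Slc16a3 measured 1.54, 0.88, 1.25 and 0.89 FPKM in Arrest at 1 d, from 72 to 107 fragments per library, all above Naïve. At 0.5 d it measured 0.67, 1.69, 0.73 and 1.29 FPKM and at 3 d 0.71, 0.87, 0.99 and 1.68 FPKM, each group overlapping the highest Naïve libraries. The log2 differences on the log2(FPKM + 1) scale were 0.67, 0.71 and 0.65 at 0.5, 1 and 3 d. With all libraries none passed (limma adjusted p = 0.12, 0.065 and 0.21), and without replicate 3 of Adr 3 d all 3 did (adjusted p = 0.016, 0.0057 and 0.046). The calls also depended on the pseudocount. On log2(FPKM + 0.1) with all libraries, the differences at 0.5 and 1 d were 1.83 and 1.93, and both passed (limma adjusted p = 0.035 and 0.015). Quality weights also called Slc16a3 at 1 d (limma adjusted p = 0.019). Adr libraries were also high. All 4 at 7 d, at 0.79, 0.98, 0.88 and 0.82 FPKM, lay above every Naïve library (log2 difference 0.53, limma adjusted p = 0.79). The log2 differences in Adr at 0.5 and 1 d were 0.48 and 0.35 (adjusted p = 0.37 and 0.52). The highest Arrest 3 d value, 1.68 FPKM, came from replicate 4, which also had 1037 FPKM of monocyte and macrophage markers.

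Slc16a1 passed only in Adr at 1 d without replicate 3 of Adr 3 d. It measured 56.2, 54.6, 51.8, 49.2 and 45.5 FPKM in Naïve and 41.3, 36.8, 33.9 and 31.7 FPKM in Adr at 1 d, with no overlap. The log2 difference was -0.51 (limma adjusted p = 0.20 with all libraries and 0.041 without the replicate). Arrest at 1 d read 52.4, 61.8, 35.8 and 50 FPKM and overlapped Naïve. The difference between Arrest and Adr at 1 d, 0.45 on the log2 scale, was not called (adjusted p = 0.73 and 0.39).

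In glycogen breakdown, Pygb and Phka1 moved in opposite directions. Pygb, the brain form of glycogen phosphorylase that heart also makes, measured 128, 138, 124, 108 and 126.1 FPKM in Naïve. It measured 88.4, 83, 88.8 and 78 FPKM in Arrest at 0.5 d and 98.1, 86.2, 92.8 and 91.1 FPKM at 1 d, all below the lowest Naïve library. The log2 difference was -0.56 at 0.5 d (SE 0.18, limma adjusted p = 0.080) and -0.43 at 1 d (SE 0.18, adjusted p = 0.14). Without replicate 3 of Adr 3 d, which read 43.3 FPKM, both passed (adjusted p = 0.0051 and 0.015). The muscle form Pygm was not called, with means of 227 FPKM in Naïve and 198 and 204 FPKM in Arrest at 0.5 and 1 d.

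Phka1 encodes the regulatory alpha subunit of muscle phosphorylase kinase, the enzyme that switches phosphorylase on. It measured 4.85, 5.84, 6.81, 6.03 and 6.01 FPKM in Naïve. In Arrest it measured 10.1, 16, 9.97 and 10.8 FPKM at 0.5 d and 14, 11.9, 13.3 and 6.33 FPKM at 1 d. All of these but replicate 4 at 1 d exceeded every Naïve library. The log2 difference was 0.86 at 0.5 d (SE 0.27, limma adjusted p = 0.066) and 0.79 at 1 d (SE 0.27, adjusted p = 0.064), and both passed without replicate 3 of Adr 3 d (adjusted p = 0.033 and 0.035).

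Adr libraries at 0.5 d held Phka1 at 5.86, 6.98, 11.5 and 10 FPKM, so that replicates 3 and 4 reached the Arrest levels. At 1 d Adr was at 6.69, 6.92, 5.43 and 5.29 FPKM, and the Arrest difference from Adr of 0.76 (SE 0.28) was not called (limma adjusted p = 0.64). Replicate 1 of Arrest 3 d, at 15.8 FPKM, was also high. By 7 d the levels were 4.72 to 6.06 FPKM in Adr and 4.93 to 6.51 FPKM in Arrest. Phkg1, the catalytic gamma subunit, showed no called difference, with means between 1.88 and 2.78 FPKM without replicate 3 of Adr 3 d.

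Of the synthesis genes none was called in either fit. Ppp1r3c, which brings protein phosphatase 1 to glycogen and so favours synthesis, measured 53.8, 57.6, 61.9, 52.5 and 53.3 FPKM in Naïve. It measured 46.6, 21, 45.8 and 32.7 FPKM in Arrest at 0.5 d and 32.3, 39.8, 27.7 and 32.5 FPKM at 1 d, below every Naïve library. Adr at 1 d, at 44, 37.6, 37 and 27 FPKM, lay below every Naïve library too (log2 difference -0.62, limma adjusted p = 0.36). In Arrest at 1 d the log2 difference of -0.75 had an SE of 0.32 (limma adjusted p = 0.15). Ppp1r3c passed there with quality weights and with only the compared groups. The branching enzyme Gbe1 averaged 9.37 FPKM in Naïve and 12.8 FPKM in Arrest at 1 d, every library of the latter lying higher (log2 difference 0.42, adjusted p = 0.18). Gys1 and Ugp2, which makes the UDP-glucose that glycogen synthase uses, had log2 differences of 0.30 (adjusted p = 0.46) and 0.15 (adjusted p = 0.68) in Arrest at 1 d.

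Across the 9 groups at once, the limma F test called Hk2 (adjusted p = 0.018) and Phka1 (adjusted p = 0.046) among 34 entries, beside 3.89% of all genes. In most fits that left out a library, 1 member passed, and the share of all genes in those fits is not given. Without replicate 3 of Adr 3 d it called Hk2, Pygb, Slc2a4, Pgam1 and Phka1, beside 6.25% of all genes. Arrest and Adr were compared directly at each time. No member passed by limma, with all libraries or without the replicate. The unadjusted p was at most 0.05 for 0, 4, 10 and 0 members, in the order of the times, with all libraries, beside 3.87, 6.59, 5.37 and 2.53% of all genes. It was so for 4, 8, 3 and 0 without the replicate, beside 4.66, 8.47, 5.69 and 3.15%. Over all genes the calls were 0, 0, 0 and 0.00603% with all libraries, and 0% at each of the 4 times without the replicate.

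Replicate 3 of Adr 3 d was low in most members. Of the 34 tested entries, 20 were lower there than in any other library and 4 were higher. The share of all genes lowest or highest in this library was not counted, so these counts cannot be called particular to the members. The low ones included Ldhb (150 FPKM, against at least 479 FPKM elsewhere), Eno3 (146 against at least 288), Pygm (48.7 against at least 147), Slc2a4 (18.7 against at least 48.2) and Pfkm (42.7 against at least 88.5). The 4 high ones were Slc16a3 (4.34 FPKM, against at most 1.69), Pfkfb4 (3.99 against at most 2.08), Eno1 (66 against at most 41.9) and Pgam1 (54.2 against at most 38.9). Pfkfb4 encodes a PFKFB form induced by hypoxia. The ratio to the mean of the other 3 Adr 3 d libraries was 0.22 for Ldhb, 0.24 for Eno3, 2.88 for Eno1 and 6.72 for Slc16a3. Forms that are not specific to muscle were also among the 20 low ones, at ratios of 0.39 for Pygb, 0.62 for Pfkl, 0.80 for Ldha, 0.58 for Tpi1 and 0.70 for Gpi1. Pgk1 and Pkm, at 0.88 and 0.91, lay within the range of the other libraries.

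**Figure D4:**
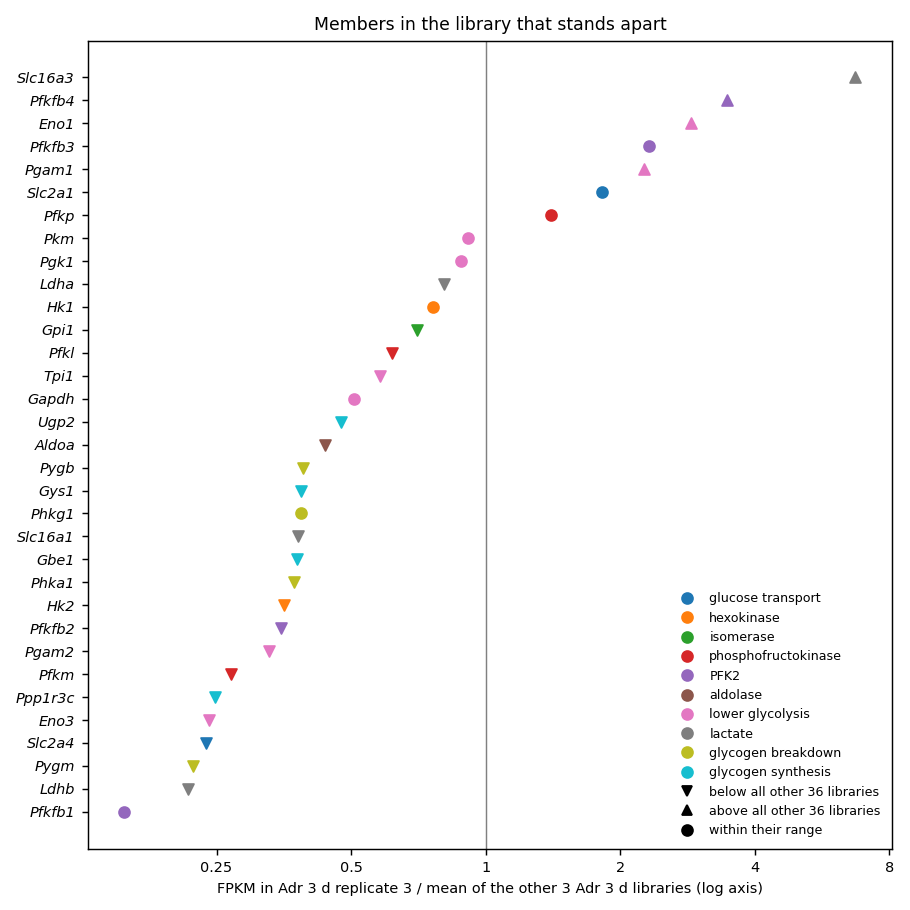
FPKM of each member in replicate 3 of Adr 3 d divided by the mean of the other 3 libraries of that group, on a logarithmic axis and coloured by role. Triangles mark values beyond all other 36 libraries. Ldhb, Pygm, Slc2a4 and Eno3 lie near 0.22 to 0.24, Pygb lies at 0.39, Ldha at 0.80, and Slc16a3, Pfkfb4, Eno1 and Pgam1 lie above 2.

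Within libraries, the log2 ratio of Eno1 to Eno3 was -1.14 in replicate 3 of Adr 3 d and between -4.81 and -3.10 in the other libraries. That of Ldha to Ldhb was -0.13 there and between -2.36 and -1.26 elsewhere. Replicates 1 and 4 of Arrest 3 d came next, with Eno1 to Eno3 at -3.10 and -3.28 and Ldha to Ldhb at -1.37 and -1.26. Their ventricular cardiomyocyte markers summed to 8238 and 9771 FPKM, and their monocyte and macrophage markers to 690 and 1037 FPKM. The share of cell types in these ratios was not tested.

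In Arrest at 0.5 d, Eno1 to Eno3 was higher than in every Naïve library, at -3.96 ± 0.24 (SD, n = 4) against -4.42 ± 0.13 (n = 5). The exact permutation p was 0.016 and 0.093 after adjustment. The Pygb to Pygm ratio was lower than in every Naïve library in Arrest at 0.5 d (-1.22 ± 0.19, n = 4) and 1 d (-1.15 ± 0.12, n = 4), against -0.86 ± 0.11 (n = 5), with the same exact permutation p. The 4 libraries of Adr at 0.5 d, at -1.01 ± 0.023, also lay below every Naïve library with that p.

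**Figure D5:**
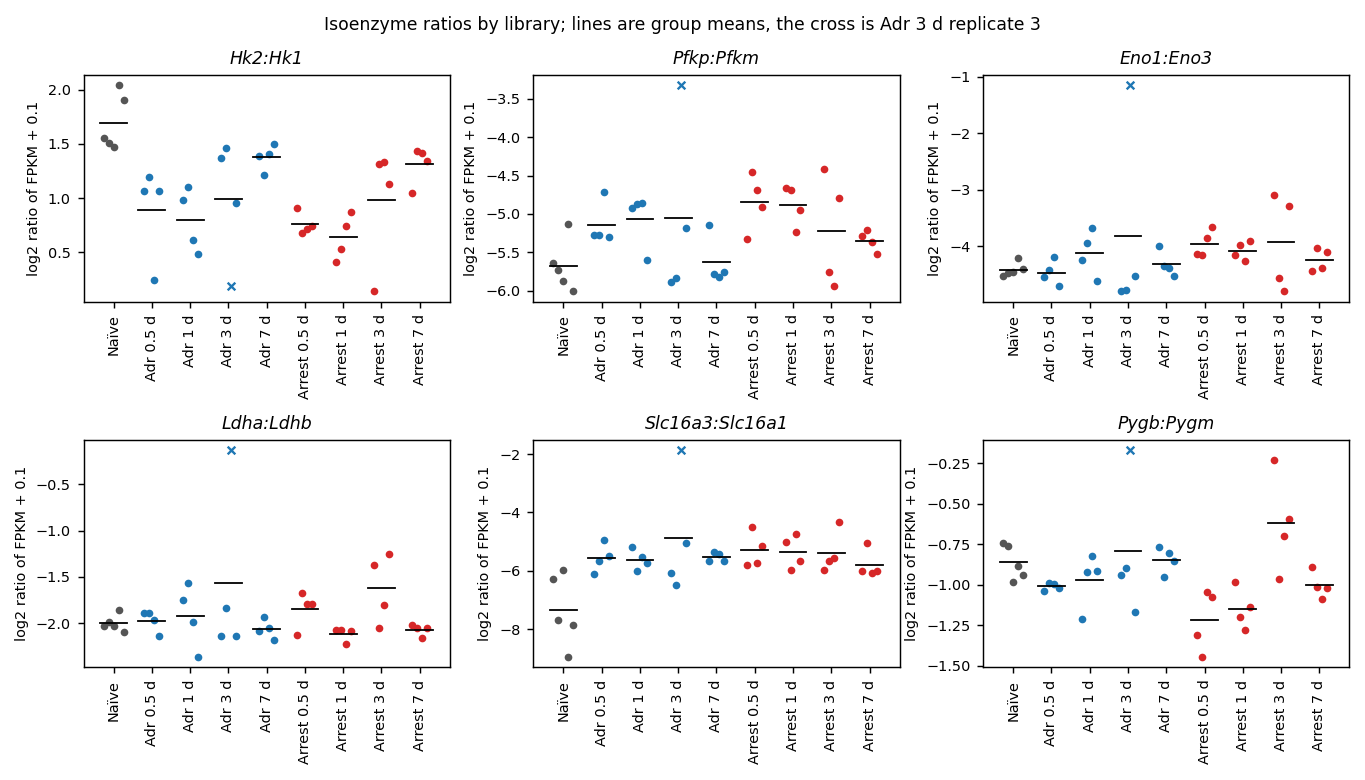
Log2 ratio of 6 isoenzyme pairs (FPKM + 0.1) in each library, with group means as lines and replicate 3 of Adr 3 d as a cross. Hk2 to Hk1 lies higher in the 5 Naïve libraries than in any group but Adr 7 d, which overlaps them, and the cross lies above every other library for Pfkp to Pfkm, Eno1 to Eno3, Ldha to Ldhb, Slc16a3 to Slc16a1 and Pygb to Pygm.

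Genes next to the members were read from lists of the same pathways. With all libraries, 0.627% of all genes passed in Adr at 1 d, 3.2% in Arrest at 0.5 d and 7.11% at 1 d. Of 21 tested glycogen genes outside the members, Gaa passed in Adr at 1 d, and in Arrest at 0.5 and 1 d, always lower. Gaa is the lysosomal enzyme that breaks glycogen down. It lay between 23.7 and 25.8 FPKM in Naïve and between 16.1 and 17.7 FPKM in Arrest at 1 d (log2 difference -0.52, SE 0.12, limma adjusted p = 0.0073). Epm2a, the glycogen phosphatase laforin, and Gsk3b, a kinase that inhibits glycogen synthase, passed in Arrest at 1 d. Their log2 differences were -0.82 (limma adjusted p = 0.023) and -0.50 (adjusted p = 0.011).

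Of 14 genes of pyruvate entry and dehydrogenase, Pdp2, a phosphatase that activates pyruvate dehydrogenase, fell in Adr at 1 d and Arrest at 0.5 d. Its mean was 4.11 FPKM in Naïve and 1.79 and 1.81 FPKM there. Mpc2, a subunit of the mitochondrial pyruvate carrier, rose in Arrest at 1 d, from 38.5 to 49.5 FPKM in Naïve to 68.2 to 86.4 FPKM (log2 difference 0.73, limma adjusted p = 0.025). Pdk1, a kinase that inactivates the dehydrogenase, fell there by 0.55 (log2, adjusted p = 0.048).

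Of 11 tested pentose phosphate and hexosamine genes, 2 passed in Arrest at 0.5 d and 4 at 1 d, beside 3.2 and 7.11% of all genes. Gfpt2, which starts hexosamine synthesis, rose from a mean of 7.06 FPKM in Naïve to 18.1 FPKM at 0.5 d and 16.4 FPKM at 1 d. Uap1, which completes UDP-N-acetylglucosamine, rose from 14.3 FPKM to 22.9 and 22.6 FPKM. At 1 d Pgls of the pentose phosphate pathway was higher and Gfpt1, the other form of the first hexosamine enzyme, lower, at 2.1 FPKM beside 3.4 FPKM in Naïve.

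Of 15 targets of hypoxia-inducible factors outside glycolysis, Bnip3, which promotes mitophagy, was the only one called with all libraries, in Arrest at 1 d. Its range was 66.5 to 215 FPKM beside 44.3 to 58.8 FPKM in Naïve (log2 difference 1.53, SE 0.43, limma adjusted p = 0.024). Of 16 insulin and AMPK genes, Prkaa2, the catalytic AMPK subunit typical of muscle, passed in Arrest at 1 d, lower by 0.66 on the log2 scale (adjusted p = 0.049). None of 17 tested further glycolysis isoforms and none of 10 NADH shuttle genes passed in any comparison with Naïve with all libraries. Without replicate 3 of Adr 3 d, Fbp2, a gluconeogenic phosphatase of muscle, passed in Arrest at 3 d, with a log2 difference of -0.76 (limma adjusted p = 0.050). In that fit 5 of the 10 shuttle genes also passed. Of all genes in it, 5.5% passed in Arrest at 0.5 d, 10.4% at 1 d, 1.14% at 3 d and 2.53% in Adr at 1 d. Got1, an aspartate aminotransferase of the malate-aspartate shuttle, was higher in Arrest at 0.5 d (0.52, adjusted p = 0.036) and 1 d (0.64, adjusted p = 0.0061). Gpd1 of the glycerol phosphate shuttle was higher in Arrest at 0.5 d (0.75) and the malate dehydrogenase Mdh1 at 1 d (0.31), whereas Gpd2 (-0.53) and Slc25a13 (-0.47) were lower in Adr at 1 d.

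Of 15 tested clock genes, Nr1d1 and Dbp passed in Arrest at 0.5 d, both lower, with log2 differences of -0.82 (limma adjusted p = 0.023) and -1.5 (adjusted p = 0.029). Of 10 glucocorticoid targets, 4 passed in Arrest at 0.5 d (Mt1, Lcn2, Cdkn1a and Fkbp5) and the same 4 and Zbtb16 at 1 d, all higher. Of all genes, 3.2 and 7.11% passed at these times. Mt1 averaged 114 FPKM in Naïve and 871 and 959 FPKM in Arrest at 0.5 and 1 d. Their part in the changes of the members was not tested.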

How the data were processed

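Bulk RNA sequencing of left ventricle was analysed in 37 libraries of 9 groups taken from the sample labels. HISAT2 was the authors' aligner, and they deposited FPKM values for 56748 genes. Build, annotation, counting tool and strand setting are not given in the sources used here. Gene coordinates of the table differed from those of GRCm38, so only promoter coordinates, from RefSeq, are given. Times gene length, 100% of the FPKM values came to whole fragments (tolerance 0.01 fragments), which gave the fragments counted in each library. No columns of per-sample values were left unused (0 columns). Replicates are separate samples in the labels. That each came from its own mouse is not stated, so p-values measure the spread between these samples, which may be partly technical.

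Values were converted to log2(FPKM + 1). Genes reaching 0.5 FPKM in 4 or more libraries were kept. A mean for each of 9 groups was fitted with limma 3.58.1 (R 4.3.3), with a mean-variance trend in eBayes. Without replicate 3 of Adr 3 d, the filter kept 16458 genes, in place of 16579. The study removed a poor-quality library of Adr 3 d, and the labels do not say which. The fit was tested on simulated data. Isoenzyme ratios used the pseudocount 0.1 and exact two-sided permutation tests (scipy 1.17.1) with p doubled from the smaller tail. Members were named where they passed in either fit, and pathway genes by plan where they passed with all libraries, at most 4 a list. Departing from that plan, Zbtb16 was named as a further glucocorticoid target. Fbp2 and the shuttle genes were named though they passed only without replicate 3 of Adr 3 d.

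The members and lists were chosen with earlier results of these data known. Alternatives were other scalings, pseudocounts and filters, removal of the trend with gene length (span 0.5), quality weights, covariates, only the compared groups, and leaving out each library. Figures were drawn with matplotlib 3.10.9.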

Additional observations from a re-analysis of the deposited data

Results flagged for a closer look

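In 306 sets of values (34 members in 9 groups), 30 had a highest or lowest library far from the rest of its group by Dixon's test, and chance flags about 1 in 20 groups. Of these, 5 fell in replicate 3 of Adr 3 d, which read 4.34 FPKM for Slc16a3, 3.99 for Pfkfb4, 54.2 for Pgam1, 66 for Eno1 and 150 for Ldhb. A further 5 were Gapdh, at 65.4 FPKM in Adr 0.5 d replicate 1, 27.8 in Adr 7 d replicate 2, 35 in Arrest 0.5 d replicate 2, 43.9 in Arrest 3 d replicate 2 and 51.5 in Arrest 7 d replicate 4.

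Replicate 3 of Adr 0.5 d was low in Hk2 (13 FPKM, the others 27.5 to 30.5), Slc2a4 (56.4, the others 75 to 78.4) and Hk1 (11, the others 13.1 to 13.3), and replicate 4 was high in Pfkfb4 (2.01). Replicate 4 of Adr 1 d had 21.8 FPKM of Eno1 and 212 of Pygm, and replicate 1 of Adr 7 d had 11.7 of Hk1.

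In Arrest at 0.5 d, replicate 1 had 66.5 FPKM of Slc2a4 and replicate 2 had 16 of Phka1. In Arrest at 1 d, replicate 1 had 49.8 FPKM of Slc2a4 and 38.9 of Pgam1, replicate 3 had 5.67 of Slc2a1 and 927 of Ldhb, and replicate 4 had 76.8 of Ugp2. In Arrest at 3 d, replicate 4 was low in Slc16a1 (35.7 FPKM, the others 49.1 to 51.8) and Pygb (97.4, the others 130 to 133). In Arrest at 7 d, replicate 1 had 16.3 FPKM of Pfkl and replicate 2 had 39.6 of Ppp1r3c. The second Aldoa entry read 0.315 FPKM in Naïve replicate 2 and 0.357 in Arrest 0.5 d replicate 1, and 0 in the rest of those groups.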

How the results depend on the processing

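Under every alternative tried, the 7 called members kept their direction in each comparison with Naïve in which they passed with or without replicate 3 of Adr 3 d. Leaving out 1 library at a time, 0 to 3 members passed in Adr at 1 d, 0 to 1 in Adr at 3 d, 0 to 6 in Arrest at 0.5 d, 1 to 5 in Arrest at 1 d, 0 to 1 in Arrest at 3 d, 0 to 2 in Arrest 1 d against 7 d, and 1 to 5 in the F test. The count of 3, that of 6 and both counts of 5 came without replicate 3 of Adr 3 d, and that of 1 in Arrest at 1 d without its replicate 1. Beside the counts of 3, 6, 5 and 5, 2.53, 5.5, 10.4 and 6.25% of all genes passed. Shares of all genes are not given for the fits that left out another library, so their counts cannot be set against them. No member passed in the other comparisons in these fits.

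In Arrest at 0.5 d, 2 members passed with all libraries, 0 without a filter, 1 with the length trend removed (Pfkp, in place of Hk2 and Pgam1), 4 with quality weights, 5 with only the compared groups, and 0 with the description number as a covariate. Under quantile normalization Hk2 and Pygb passed, beside 3.15% of all genes. The share of all genes at 0.5 d was 3.2% with all libraries and 2.29% with the length trend removed. With the description number it was 1.42%. In Arrest at 1 d, where 2 passed, the counts were 4 with the length trend removed, 8 with quality weights, 5 with only the compared groups and 0 with the description number. Quantile normalization gave 3 (Hk2, Pygb and Pkm), without Pgam1. Of all genes, 7.11% passed at 1 d with all libraries and 5.28% with the length trend removed. The share was 0.205% with the description number and 6.14% under quantile normalization. In the F test 2 became 1 with the pseudocount 0.1 or without a filter, 7 with quality weights and 0 with the description number. In Adr at 1 d, 0 became 1 under quantile normalization, division by counted fragments, a mean of at least 1 FPKM, quality weights, the sex covariate, and with only the compared groups. In Arrest 1 d against 7 d, 0 became 1 under quantile normalization, division by counted fragments, a mean of at least 1 FPKM and the sex covariate, and 4 with quality weights or only the compared groups. Quality weights gave 1 in Adr at 0.5 d and 2 in Adr 1 d against 7 d. In the F test 2.52% of all genes passed with the description number. Under quantile normalization 0.748% passed in Adr at 1 d and 1.39% in Arrest 1 d against 7 d. Shares of all genes for the other settings in this paragraph are not given, so their counts cannot be set against them. The cause of these shifts was not tested.

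The fit without replicate 3 of Adr 3 d and with the length trend removed, chosen after seeing the data, called 1 member in Adr at 0.5 d, 2 in Adr at 1 d, 7 in Arrest at 0.5 d, 8 in Arrest at 1 d, 1 in Arrest 1 d against 7 d and 5 in the F test, beside 0.51, 1.26, 4.42, 8.08, 3.09 and 4.78% of all genes. Beyond the members called in either main fit, it called Pfkp, Gbe1 and Ppp1r3c. Planned settings had called these as well. Pfkp passed with the length trend removed, and Pfkp and Ppp1r3c passed in Arrest at 1 d with quality weights. Gbe1 passed with quality weights in Arrest 1 d against 7 d.

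With the replicate number as a replicate block, 0 members passed in Arrest at 0.5 d, 1 in Arrest at 1 d and 1 in the F test. The shares of all genes with this block are not given, so these counts cannot be set against them. Same-numbered libraries did not deviate together (mean r = -0.008 over 144 pairs, -0.29 to 0.27), so the numbers do not pair the samples. No isoenzyme ratio passed under any alternative, including p from the absolute difference, added after seeing the data, whose smallest adjusted p was 0.087. Low members such as Slc16a3 rest on 0 to 557 fragments per library.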
